A study of Mus musculus with 12 samples.

Results

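Collagens and laminins are the main proteins of the connective tissue and basement membranes of the liver, and their 51 protein-coding genes (40 collagens and 11 laminins) are described here. They were chosen by gene symbol alone, as every protein-coding gene in the deposited tables named as a collagen alpha chain or as a laminin alpha, beta or gamma chain, and they are 51 of 25164 genes listed. The RNA came from mouse liver in 3 groups of 4 libraries. Control animals received a normal diet over 14 weeks, HFD animals a high-fat diet over 14 weeks, and mice of the fenofibrate group the same high-fat diet for 14 weeks, with fenofibrate by gavage after the first 10 weeks, for 4 weeks. Fenofibrate lowers blood lipids by activating PPARA, a nuclear receptor abundant in hepatocytes. The series set out to study the drug in a diet model of fatty liver, with 10 mice assigned per group. Strain, sex and age are not given in the labels, nor is a vehicle gavage in the other groups, and the labels do not say how each library relates to 1 mouse, so every p-value here weighs a difference against library-to-library spread, which may be technical.

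In liver fibrosis, hepatic stellate cells, which store retinoids in the space between hepatocytes and sinusoids, turn into myofibroblasts and deposit fibrillar collagens, above all types I and III. Basement membranes are sheets of type IV collagen and laminin, a cross-shaped trimer of an alpha, a beta and a gamma chain, joined by nidogen and perlecan. In normal liver they surround bile ducts and vessels, while the sinusoids have only a sparse matrix of this kind.

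Totals ran from 15797016 to 18514481 counts per library, and the 51 genes took 0.0991% to 0.164% of them. Levels are CPM, counts scaled to equal library sizes after TMM normalization. Sums of marker genes are CPM of unscaled totals. The sum of 11 hepatocyte markers was 129978 to 160785 CPM in every library, so the liver label holds. Fenofibrate library 1 held 2153 CPM of pancreatic acinar markers (6.24 to 31.1 in the other libraries), and fenofibrate libraries 1 and 3 held 200.3 and 161 CPM of striated muscle markers (0.223 to 0.966 elsewhere). In HFD library 1 the endothelial sum was 242 CPM, against 360.04 to 504 in the other libraries. Its Kupffer cell and macrophage sum was also the lowest, at 349 CPM against 439 to 873. Calls of most named genes that rest on these libraries are given with and without them. Genes that did not pass, such as Col1a1 and Acta2, are mostly given with all libraries only.

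A low-count filter over all genes left 35 of the 51 genes to be tested, 24 collagens and all 11 laminins, among 13477 genes. The other 16 had at most 18 counts in any library, and no comparison was made for them. Over the 12 libraries the total was 100 counts for Col7a1, the chain of the anchoring fibrils of skin, 75 for Col8a1, 65 for Col6a5, 62 for Col23a1, 61 for Col24a1, 49 for Col4a6, 42 for Col25a1, 42 for Col9a3 and 37 for Col8a2. It was 14 for Col17a1, 11 for Col9a2, 7 for Col22a1, 5 for Col10a1, 5 for Col28a1, 2 for Col11a1 and 2 for Col26a1. They include both type VIII chains and Col10a1, which form short networks, and 3 of the 4 transmembrane collagens.

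Per kilobase of exon, 1 gene stood far above the rest. Col18a1, whose C-terminal piece is endostatin and which hepatocytes make as well as vascular cells, had a mean of 136 CPM per kilobase over the 12 libraries. Next came Col5a3 (8.68), Col14a1 (5.36), Col4a1 (2.93), Col27a1 (2.57), Col4a2 (2.22), Col6a1 (1.83), Col13a1 (1.76), Lamc1 (1.56) and Col3a1 (1.44), in the same unit. Lengths are the union of all annotated exons, so a gene read mostly from a short isoform is ranked too low. Col18a1 took 74.0% to 80.8% of the counts of the 51 genes in Control libraries, 71.4% to 74.0% in HFD and 78.5% to 82.1% in the fenofibrate group.

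**Figure D1:**
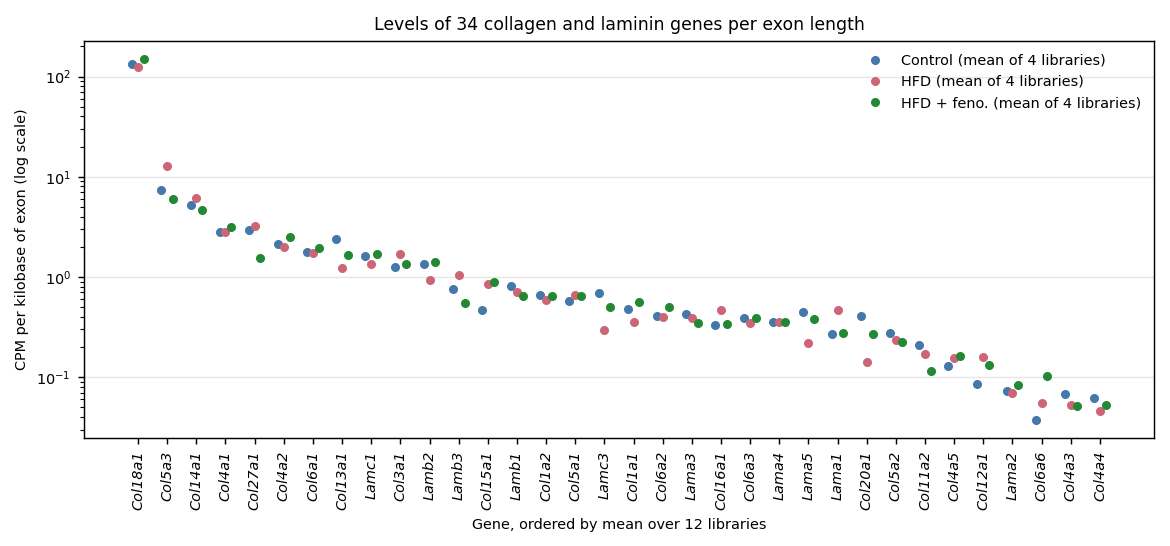
Mean level of 34 of the tested genes in each group (points), in CPM per kilobase of exon on a log axis, ordered by the mean over 12 libraries. Col18a1 (136) stood above Col5a3 (8.68) and the others, and the fibrillar chains Col1a1 and Col1a2 stood below 1.

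The first comparison, HFD against Control, asks which of these genes changed with the diet. The fibril chain Col5a3, the laminin chain Lama1 and the collagens Col12a1 and Col15a1 rose, by 1.72-fold to 1.84-fold, and the laminin chains Lama5 and Lamc3 and the collagens Col13a1 and Col20a1 fell, to 0.346 to 0.522 of the Control level. Type I and type III collagen, the chains of scar tissue, did not pass the test. In all, 4 of 35 genes rose and 4 fell (edgeR quasi-likelihood test, Benjamini-Hochberg adjusted p under 0.05 over 13477 genes). Over all genes tested, 6.13% rose and 6.64% fell. The median log2 fold change was -0.11 over the 35 genes and -0.02 over all genes. With unscaled library totals the split over all genes moved to 919 risen and 523 fallen, in place of 826 and 895, and stayed at 4 and 4 for the members.

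The second comparison, the fenofibrate group against HFD, asks what the drug changed on the same diet. The fibril chains Col5a3 and Col27a1 and the laminin chains Lama1 and Lamb3 fell, to 0.473 to 0.584 of the HFD level, and the laminin chains Lama5 and Lamc3 rose, by 1.74-fold and 1.69-fold. No collagen rose. Counts were 2 risen and 4 fallen of 35, where 6.89% of all genes rose and 6.59% fell, with a median of 0.08 against 0.01 over all genes. Without fenofibrate libraries 1 and 3, 0 rose and 2 fell (Col5a3 and Col27a1), and of all genes 55 rose and 69 fell, in place of 928 and 888. That fit keeps only fenofibrate libraries 2 and 4, so calls can be lost in it through fewer libraries alone. Here and below, a call lost in it does not show that the change rested on libraries 1 and 3. With unscaled totals the median of all genes shifted to 0.18, 2059 genes rose and 451 fell, and 3 of the 35 rose and 3 fell. Both comparisons use the same 4 HFD libraries, so the values of each are given side by side below and are not independent of each other.

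The third comparison, the fenofibrate group against Control, shares libraries with both. Col15a1 and Col6a6 rose and Col27a1 fell. These 2 rises and 1 fall of 35 stand beside 4.86% risen and 4.31% fallen of all genes. Without fenofibrate libraries 1 and 3 none of the 3 passed (215 genes rose and 158 fell, in place of 655 and 581). With unscaled totals 2119 genes rose and 298 fell, at a median of 0.20, and 3 of the 35 rose and 1 fell. In bulk liver RNA, fewer cells of a type and less RNA per cell cannot be told apart in any of these comparisons.

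**Figure D2:**
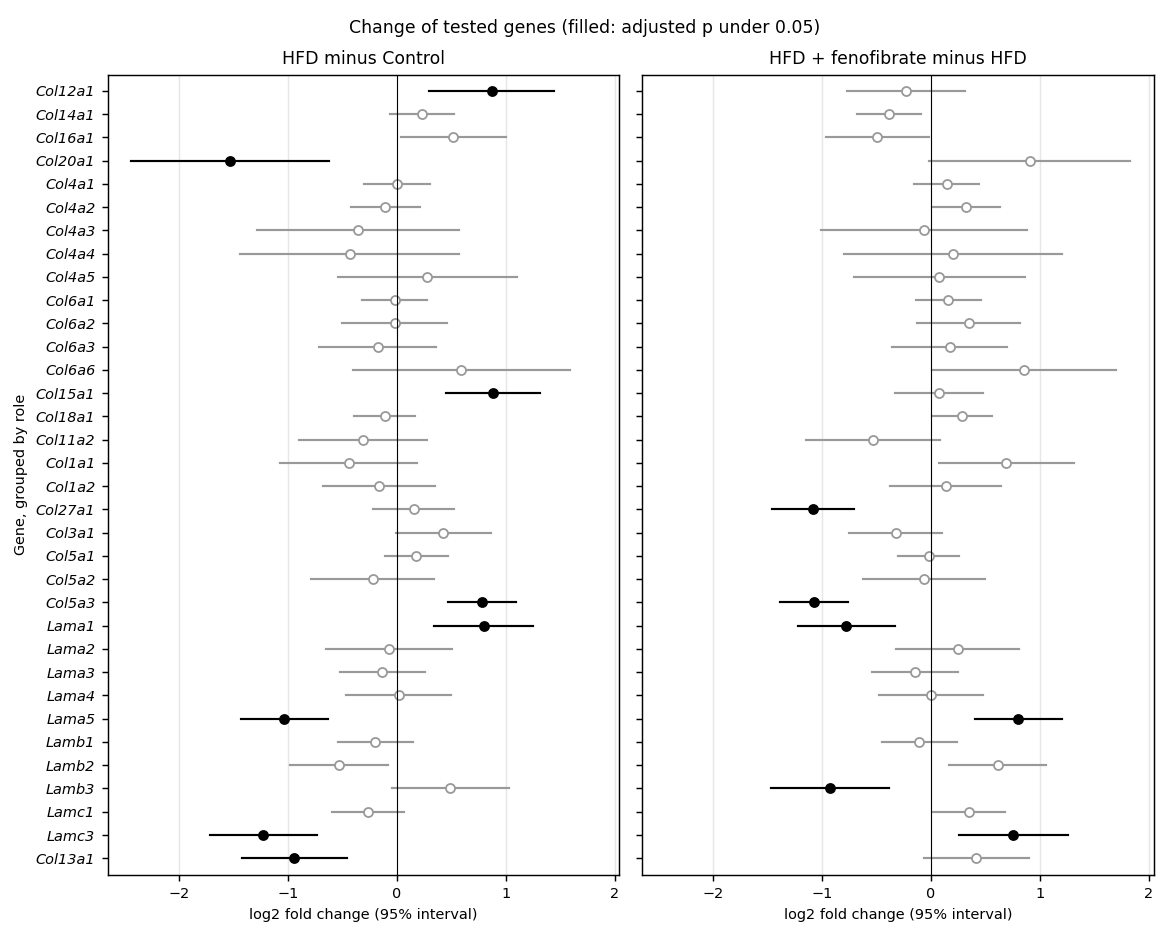
Log2 fold change of 34 of the tested genes with its 95% interval, HFD minus Control on the left and the fenofibrate group minus HFD on the right; filled points passed adjusted p under 0.05. Filled points lie on both sides of 0 in both panels, and most genes stay unfilled.

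Fibrillar collagens form the cable-like fibrils of connective tissue. Of 8 tested, 1 rose and 0 fell with the diet (median log2 fold change -0.01), and 0 rose and 2 fell with fenofibrate against HFD (median -0.19). Col5a3 (ENSMUSG00000004098, GRCm38 chromosome 9, 20770050 to 20815067, minus strand) codes for the alpha3 chain of type V collagen, a minor fibril component that helps to set fibril diameter. Its RefSeq promoter window (GRCm38.p6, chr9:20815018-20815317, minus strand), from 250 bases before to 50 after the start, is shown because Col5a3 passed in both of the first 2 comparisons.
Col5a3: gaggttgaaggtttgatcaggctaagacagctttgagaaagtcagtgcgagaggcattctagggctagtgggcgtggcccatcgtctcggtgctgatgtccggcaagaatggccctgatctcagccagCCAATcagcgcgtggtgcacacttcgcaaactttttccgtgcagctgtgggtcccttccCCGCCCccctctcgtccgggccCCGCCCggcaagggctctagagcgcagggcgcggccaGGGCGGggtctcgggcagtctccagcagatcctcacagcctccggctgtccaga
Capitals mark GGGCGG (the GC box) and CCAAT on either strand. The window holds 3 GC boxes and 1 CCAAT, with no overlap between them, and neither the TATAAA box nor the nuclear receptor motif AGGTCA nor the AP-1 motif TGANTCA, each searched on both strands. A GC box is in 35.7% and a CCAAT in 37.4% of 32851 RefSeq promoter windows of that length, so such matches are common and say nothing here of what binds.

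Levels of Col5a3 in libraries 1 to 4 were 54.0, 42.1, 59.6 and 44.9 CPM in Control. They were 86.7, 98.4, 73.9 and 85.9 in HFD and 42.6, 39.0, 30.998 and 51.0 with fenofibrate. Every HFD library lay above every library of the other 2 groups. The group means were 50.2 ± 8.09 (SD, n = 4), 86.2 ± 10.0 and 40.9 ± 8.28 CPM. The log2 fold change was 0.78 ± 0.15 (SE) with the diet (edgeR adjusted p = 0.00273) and -1.08 ± 0.15 with fenofibrate against HFD (edgeR adjusted p = 0.00079). Against Control, the fenofibrate group differed by -0.29 ± 0.15 (95% interval -0.61 to 0.02, adjusted p = 0.232). The first 2 calls held, at the threshold of 0.05, in each of 20 alternative fits (other tools, scalings and filters, and libraries left out), those without fenofibrate libraries 1 and 3 included. The adipocyte marker sum followed the same order, with 406 to 1124 CPM for Control, 2247 to 3302 for HFD and 798 to 1498 for fenofibrate. Of the 8 markers 4 were tested, and 1, Car3, a carbonic anhydrase, rose with the diet and fell with fenofibrate against HFD. Car3 alone gave 378 to 1099, 2229 to 3277 and 756 to 1462 CPM of these sums. On the same unscaled totals Cfd was 0.506 to 8.71 CPM for HFD and 0.486 to 3.65 for fenofibrate, and was 6.31 in Control library 3 and 0 in the other 3. Adipoq and Lep were at 0 in all HFD libraries and Plin1 and Retn at 0.0589 or less. All 4 were also at 0 in Control libraries 1, 2 and 4 and in fenofibrate libraries 2, 3 and 4. The part of adipocytes in the Col5a3 values was not tested.

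Col27a1 (ENSMUSG00000045672, chromosome 4, 63214004 to 63334991) codes for a fibrillar collagen best known from cartilage. Control libraries 1 to 4 held 36.8, 41.9, 36.2 and 37.3 CPM of Col27a1. HFD libraries held 45.4, 49.0, 41.6 and 33.3, and fenofibrate libraries 12.7, 26.9, 18.0 and 22.7. The Control and HFD libraries overlapped, and all 4 fenofibrate libraries lay below both. The diet gave 0.15 ± 0.17 (edgeR adjusted p = 0.619), fenofibrate -1.08 ± 0.18 against HFD (adjusted p = 0.00242) and -0.92 ± 0.18 against Control (adjusted p = 0.00478). The fall against HFD held in all 20 alternative fits at 0.05. The fall against Control was -0.60 without fenofibrate libraries 1 and 3 and just missed the threshold (adjusted p = 0.0501), these being the 2 libraries with the lowest values.

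The major fibrillar chains of scar tissue were scarce. In libraries 1 to 4 of the Control group Col1a1 measured 1.85, 2.92, 4.54 and 3.30 CPM. The HFD values were 2.70, 2.30, 2.03 and 2.23 and the fenofibrate values 6.03, 2.70, 3.21 and 2.96. Col1a2 stood at 6.77, 7.91, 10.5 and 7.84 CPM in Control libraries 1 to 4. It stood at 7.36, 7.42, 6.997 and 7.62 in HFD and at 13.2, 5.22, 8.18 and 5.57 with fenofibrate. Both highest values, 6.03 and 13.2 CPM, belonged to fenofibrate library 1, in which Acta2, a smooth muscle and myofibroblast actin, stood at 23.9 CPM of unscaled totals against 0.778 to 6.61 in the other libraries. The part of the pancreatic and muscle RNA of that library in these values was not tested. Col1a1 gave -0.44 ± 0.30 with the diet (95% interval -1.07 to 0.19, edgeR adjusted p = 0.37) and 0.69 ± 0.29 with fenofibrate against HFD (0.08 to 1.31, adjusted p = 0.116), where the groups meet at 2.70 CPM. Col1a2 gave -0.17 ± 0.24 (-0.68 to 0.35, adjusted p = 0.713) and 0.14 ± 0.24 (-0.37 to 0.65, adjusted p = 0.733).

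Type III collagen, the chain of reticular fibres, stood above type I per kilobase (1.44 CPM per kilobase for Col3a1, 0.467 for Col1a1 and 0.635 for Col1a2 over 12 libraries). Levels of Col3a1 in libraries 1 to 4 were 8.11, 11.5, 19.2 and 10.9 CPM in Control. They were 16.8, 18.3, 15.3 and 16.4 in HFD and 16.9, 10.6, 12.9 and 12.9 with fenofibrate. HFD libraries lay in a narrow band inside the range of Control, since Control library 3 was the highest of all 12. With all libraries Col3a1 gave 0.43 ± 0.20 for the diet (95% interval -0.01 to 0.86, adjusted p = 0.193). Without Control library 3 it passed, at 0.71 (edgeR adjusted p = 0.0124). That library also had the highest Control values of Col1a1, Col1a2 and the portal fibroblast and mesothelial marker sum (57.2 CPM against 40.8 to 46.8 in the other Control libraries), and it held 1.37 CPM (unscaled totals) of the adipocyte gene Adipoq, which was at 0 in the other 3. The fenofibrate group differed from HFD by -0.32 ± 0.20 (adjusted p = 0.29).

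HFD libraries stood apart in the ratio of Col3a1 to Col1a1 counts. It was 3.32 to 4.39 for Control, 6.23 to 7.95 for HFD and 2.80 to 4.35 for fenofibrate, so HFD overlapped neither. The Col1a1 counts behind it were small, 33 to 122 per library, and the ratio is given as a description, with no test. The other fibrillar chains tested, Col5a1, Col5a2 and Col11a2, passed in no comparison. Col5a1, which pairs with Col5a2 in the main form of type V collagen, stood at 4.92 ± 0.304 CPM in Control, 5.57 ± 0.548 in HFD and 5.49 ± 0.495 with fenofibrate, with diet log2 fold change 0.18 ± 0.13 where Col5a3 had 0.78. Col5a2 gave -0.22 ± 0.26.

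**Figure D3:**
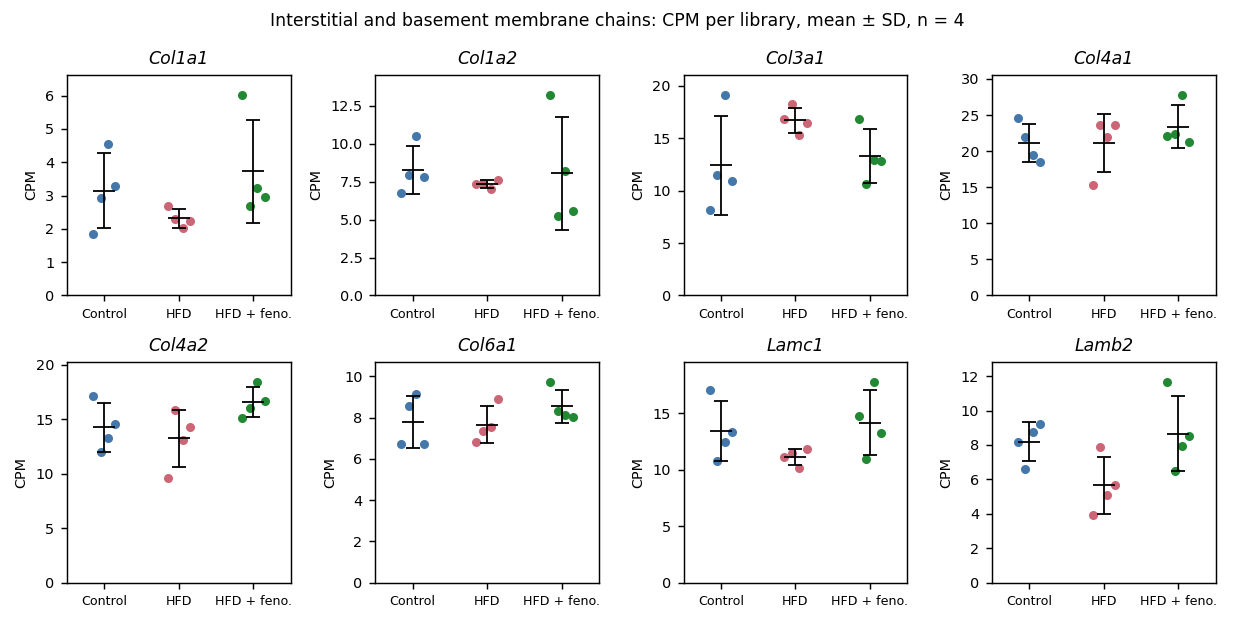
TMM-scaled CPM of each library (points) with group mean and SD (bars, n = 4) for type I, III, IV and VI collagen chains and 2 laminin chains. The groups overlap for most of these genes, and the single high fenofibrate points of Col1a1 (6.03) and Col1a2 (13.2) are library 1.

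FACIT collagens, which sit on the surface of fibrils, had 4 tested genes, of which 1 rose and 1 fell with the diet and none passed in the other 2 comparisons. Col12a1, which binds type I fibrils, was low. Control libraries 1 to 4 held 1.06, 1.69, 1.43 and 1.06 CPM of Col12a1. HFD libraries held 2.77, 1.94, 2.39 and 2.48, and fenofibrate libraries 2.72, 1.86, 2.34 and 1.23. All HFD libraries lay above all Control libraries, and the log2 fold change of 0.87 ± 0.27 passed narrowly (edgeR adjusted p = 0.0439). The call was lost without any 1 of Control libraries 1, 3 or 4, of the 4 HFD libraries or of fenofibrate library 2 (adjusted p from 0.05 to 0.109), so it rests on the whole set. Fenofibrate gave -0.23 ± 0.25 against HFD (adjusted p = 0.567).

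Col20a1 is a rarely studied member of this class, with 296 counts over 12 libraries. In libraries 1 to 4 of the Control group Col20a1 measured 2.96, 0.908, 3.23 and 1.37 CPM. The HFD values were 0.877, 0.707, 1.04 and 0.310 and the fenofibrate values 1.38, 1.02, 1.85 and 1.23. Control was split, with libraries 1 and 3 high and 2 and 4 near the HFD range, and the groups overlapped. The diet gave -1.53 ± 0.43 (edgeR adjusted p = 0.026), which did not pass after removal of Control library 1 (adjusted p = 0.0865) or 3 (0.0788) or without HFD library 2 (0.0639) or 4 (0.0796). It shares 79 exon bases (1.54% of its exons) with the transcript 9230112E08Rik on the same strand, which had 354 counts, so some reads may belong to either.

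Col14a1, a FACIT collagen that binds decorin on fibrils, was the highest of the class per kilobase. It stood at 36.7 ± 5.70 CPM for Control, 43.1 ± 7.18 for HFD and 32.9 ± 3.92 for fenofibrate. Fenofibrate against HFD gave -0.39 ± 0.14 (95% interval -0.68 to -0.09, adjusted p = 0.072), and HFD library 1, at 32.5 CPM, was the lowest of its group. Without it Col14a1 passed, at -0.50 (edgeR adjusted p = 0.031). The stellate, endothelial and Kupffer cell and macrophage marker sums were lowest in that same HFD library (260.1, 242 and 349 CPM). Their part in its Col14a1 level was not tested. Col16a1 gave 0.52 ± 0.23 with the diet (adjusted p = 0.151) and -0.49 ± 0.22 with fenofibrate (adjusted p = 0.142).

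The endostatin-type collagens XV and XVIII are proteoglycans of basement membrane zones. Col15a1 stood at 2.91, 2.53, 4.04 and 2.30 CPM in Control libraries 1 to 4. It stood at 5.67, 5.36, 4.85 and 5.89 in HFD and at 7.17, 4.799, 6.47 and 4.44 with fenofibrate. For Col15a1 all HFD and all fenofibrate libraries lay above all Control libraries, and HFD and fenofibrate overlapped. The diet gave 0.88 ± 0.20 (edgeR adjusted p = 0.0102), a call kept in all 20 alternative fits at 0.05 but not at a threshold of 0.01, and fenofibrate gave 0.07 ± 0.19 against HFD (95% interval -0.33 to 0.48, adjusted p = 0.823). Against Control the fenofibrate group was higher by 0.96 ± 0.20 (edgeR adjusted p = 0.00779), and by 0.66 without fenofibrate libraries 1 and 3, where it no longer passed (adjusted p = 0.162).

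Col18a1 (ENSMUSG00000001435, chromosome 10, 77052178 to 77166548), with 200276 counts in all, was measured with the most reads and did not pass. Levels of Col18a1 in libraries 1 to 4 were 1194, 834, 899 and 823 CPM in Control. They were 812, 929, 889.9 and 838 in HFD and 1039, 899, 1054 and 1227 with fenofibrate. Its log2 fold change was -0.11 ± 0.13 with the diet (95% interval -0.39 to 0.16, adjusted p = 0.629) and 0.28 ± 0.13 with fenofibrate against HFD (0.01 to 0.56, adjusted p = 0.15). The other 50 genes together summed to 277.7 to 316 CPM for Control, 307 to 360.3 for HFD and 246 to 277 for fenofibrate. HFD and fenofibrate libraries did not overlap in that sum, which is given as a description. Its group mean was 329 CPM for HFD and 263 for fenofibrate. Within it, Col5a3 went from 86.2 to 40.9 CPM and Col27a1 from 42.3 to 20.1, so the sum says little of the other genes.

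**Figure D4:**
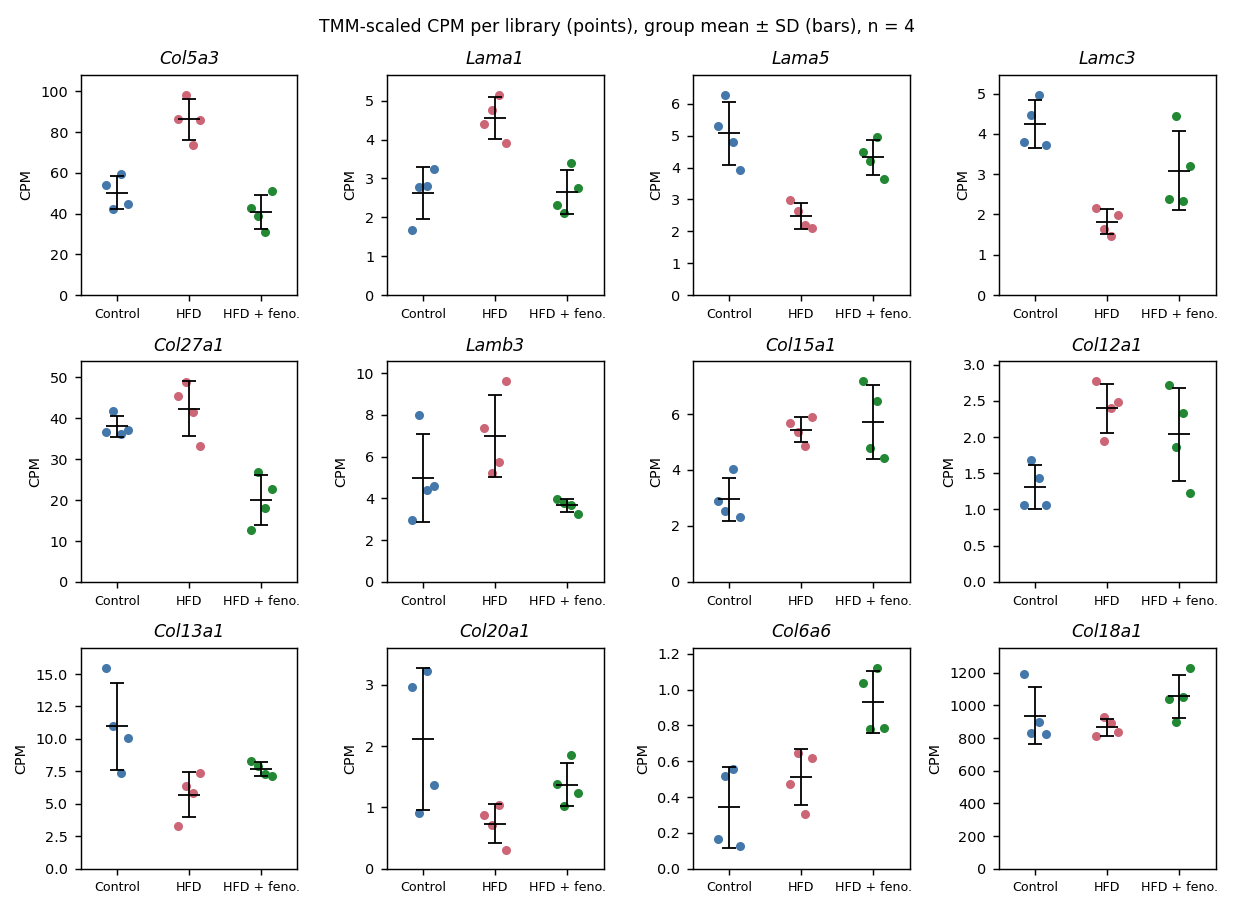
TMM-scaled CPM of each library (points) with group mean and SD (bars, n = 4) for the 11 genes that passed in any comparison and for Col18a1. HFD stands apart from both other groups for Col5a3, Lama1, Lama5 and Lamc3, fenofibrate stands below both for Col27a1, and Control stands below both for Col15a1.

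The type IV collagen chains, the scaffold of every basement membrane, showed no call in any comparison among 5 tested genes. Control libraries 1 to 4 held 24.6, 21.9, 19.5 and 18.5 CPM of Col4a1. HFD libraries held 15.3, 23.6, 22.0 and 23.7, and fenofibrate libraries 22.1, 22.4, 27.8 and 21.3. In libraries 1 to 4 of the Control group Col4a2 measured 17.2, 11.997, 13.3 and 14.6 CPM. The HFD values were 9.65, 15.9, 13.1 and 14.3 and the fenofibrate values 15.2, 16.1, 18.4 and 16.7. For these chains, which assemble together as the common type IV trimer, the log2 fold changes were 0.00 ± 0.14 and -0.11 ± 0.15 with the diet (95% intervals -0.30 to 0.30 and -0.42 to 0.21). With fenofibrate against HFD they were 0.15 ± 0.14 and 0.32 ± 0.15 (-0.15 to 0.44 and 0.01 to 0.63). HFD library 1 was lowest of all 12 for both, at 15.3 and 9.65 CPM. Its endothelial (242 CPM) and Kupffer cell and macrophage (349 CPM) marker sums were also the lowest. The part of these cells in the values was not tested. The count ratio of Col4a1 to Col4a2 stayed between 1.27 and 1.83 in all 12 libraries.

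Col4a1 and Col4a2 lie head to head on chromosome 8 and overlap by 22 bases. Their promoter windows are shown because the pair shares 1 start region (RefSeq, GRCm38.p6, chr8:11312777-11313076 on the minus strand and chr8:11312555-11312854 on the plus strand).
Col4a1: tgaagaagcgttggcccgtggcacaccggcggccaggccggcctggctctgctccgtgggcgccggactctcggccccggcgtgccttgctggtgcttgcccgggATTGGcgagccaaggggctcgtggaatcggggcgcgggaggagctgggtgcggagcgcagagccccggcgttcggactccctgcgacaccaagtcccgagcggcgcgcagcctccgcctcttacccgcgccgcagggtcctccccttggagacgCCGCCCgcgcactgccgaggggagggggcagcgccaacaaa
Col4a2: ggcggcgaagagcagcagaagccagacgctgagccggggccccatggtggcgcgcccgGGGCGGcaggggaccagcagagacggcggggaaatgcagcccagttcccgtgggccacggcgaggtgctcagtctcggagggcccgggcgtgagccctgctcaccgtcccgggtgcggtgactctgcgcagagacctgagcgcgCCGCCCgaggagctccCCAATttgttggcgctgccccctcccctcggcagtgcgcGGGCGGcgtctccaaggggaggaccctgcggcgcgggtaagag
Capitals mark GGGCGG and CCAAT on either strand. The RefSeq starts are 21 bases apart, so the windows share 78 bases, read on opposite strands, and 1 GC box of each window is the same site. GC content was 74% and 73.7%. The genes Col4a3 and Col4a4, a similar head-to-head pair 71 bases apart, are the kidney and lung type of chain and stood at 0.511 to 0.683 and 0.482 to 0.651 CPM as group means.

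The type VI collagen chains, which form beaded filaments around cells, had 4 tested genes and no call with the diet or with fenofibrate against HFD. The 4 log2 fold changes of the second comparison were all above 0, from 0.16 to 0.86. Fenofibrate library 1 was the highest of its group for Col6a1 (9.73 CPM, 8.03 to 8.34 in the others) and Col6a2 (5.09, 3.24 to 4.53). It was also highest for Col6a3 (6.72, 3.54 to 4.19), for which HFD libraries held 3.17 to 5.58 CPM. Fits of these chains without that library are not given. For Col6a1 and Col6a6 the other fenofibrate libraries also lay above the HFD means of 7.66 and 0.512 CPM. For Col6a2 libraries 3 and 4 lay above the HFD mean of 3.32 CPM and library 2, at 3.24, just below. For Col6a3 the others lay around the HFD mean of 4.12 CPM, so its direction may rest on library 1. Col6a1, the highest of them per kilobase, stood at 7.78 ± 1.26 CPM for Control, 7.66 ± 0.897 for HFD and 8.56 ± 0.795 for fenofibrate. Col6a6, a minor chain with 128 counts in all, was higher in the fenofibrate group than in Control (1.45 ± 0.43, edgeR adjusted p = 0.0406). Col6a6 stood at 0.168, 0.519, 0.560 and 0.124 CPM in Control libraries 1 to 4. It stood at 0.472, 0.648, 0.307 and 0.620 in HFD and at 1.04, 0.780, 1.12 and 0.788 with fenofibrate. All 4 fenofibrate libraries lay above the other 8, but the call was lost without any 1 of 7 single libraries (Control 1 or 4, HFD 2 or 4, fenofibrate 1, 3 or 4, with adjusted p between 0.0519 and 0.118). Leaving out fenofibrate libraries 1 and 3 gave 1.21 (adjusted p = 0.302).

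Col13a1, a transmembrane collagen found at cell adhesion sites, was the only member of its class abundant enough to test. Levels of Col13a1 in libraries 1 to 4 were 15.4, 11.0, 7.40 and 10.1 CPM in Control. They were 3.31, 6.36, 5.83 and 7.38 in HFD and 8.30, 7.92, 7.30 and 7.15 with fenofibrate. Control libraries lay above HFD libraries, narrowly at 7.40 against 7.38 CPM. The diet gave -0.94 ± 0.23 (edgeR adjusted p = 0.0132), which was -0.71 and lost without Control library 1 (adjusted p = 0.0538), the highest of all 12. Fenofibrate gave 0.42 ± 0.23 against HFD (adjusted p = 0.226).

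Laminin alpha chains carry the part of the trimer that binds integrins and dystroglycan. Of 5 tested, 1 rose and 1 fell with the diet, and 1 rose and 1 fell with fenofibrate against HFD. Lama5 (ENSMUSG00000015647, chromosome 2, 180176373 to 180225859, minus strand) codes for the alpha5 chain, the common one of adult epithelial and vascular basement membranes. Its promoter window (RefSeq, GRCm38.p6, chr2:180225810-180226109, minus strand) is shown beside that of Col5a3 because its values ran the other way.
Lama5: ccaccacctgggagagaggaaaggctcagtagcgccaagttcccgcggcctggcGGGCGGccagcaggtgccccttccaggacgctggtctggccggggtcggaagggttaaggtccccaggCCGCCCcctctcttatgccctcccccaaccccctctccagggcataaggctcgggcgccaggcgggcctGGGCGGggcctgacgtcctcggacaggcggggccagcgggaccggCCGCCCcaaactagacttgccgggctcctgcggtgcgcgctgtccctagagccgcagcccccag
Capitals again mark GGGCGG and CCAAT on either strand. There are 4 GC boxes that do not overlap, and no match to the other motifs named for Col5a3. Of 40 windows found for 37 of the 51 genes, 25 hold a GC box and 12 a CCAAT, beside 35.7% and 37.4% of all 32851 windows.

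Control libraries 1 to 4 held 5.31, 6.29, 4.79 and 3.92 CPM of Lama5. HFD libraries held 2.97, 2.65, 2.21 and 2.11, and fenofibrate libraries 4.50, 4.199, 4.96 and 3.65. HFD libraries lay below all libraries of both other groups, which overlapped each other. The means were 5.08 ± 0.992 CPM for Control, 2.48 ± 0.400 for HFD and 4.33 ± 0.552 for fenofibrate. The diet gave -1.03 ± 0.19 (edgeR adjusted p = 0.00207), kept in all 20 alternative fits at 0.05. Fenofibrate against HFD gave 0.80 ± 0.19 (edgeR adjusted p = 0.0137), but 0.73 without fenofibrate library 3 (adjusted p = 0.0511) and 0.66 without libraries 1 and 3 (adjusted p = 0.196).

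Lama1 codes for the alpha1 chain, typical of the embryo and scarce in adult tissue. In libraries 1 to 4 of the Control group Lama1 measured 1.68, 2.79, 2.80 and 3.24 CPM. The HFD values were 4.39, 4.77, 5.16 and 3.91 and the fenofibrate values 2.32, 2.10, 3.41 and 2.76. Here HFD libraries lay above all others. The diet gave 0.80 ± 0.21 (edgeR adjusted p = 0.0232) and fenofibrate -0.78 ± 0.21 against HFD (edgeR adjusted p = 0.0264). The first call was lost on leaving out Control library 1 (adjusted p = 0.0593), HFD library 2 (0.058) or 3 (0.06), and the second without HFD library 1 (0.0546), 2 (0.058) or 3 (0.0583), without fenofibrate library 1 (0.0786), without libraries 1 and 3 (-0.89, adjusted p = 0.131) or with unscaled totals (-0.61, adjusted p = 0.0736). Lama2, the muscle chain, Lama3, an epithelial chain of skin and mucosa, and Lama4, the endothelial chain, passed in no comparison. Lama4 was 4.25 ± 1.33, 4.28 ± 1.21 and 4.29 ± 0.229 CPM in Control, HFD and fenofibrate, with 95% intervals of -0.46 to 0.49 for the diet and -0.47 to 0.47 for fenofibrate against HFD.

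Among the beta chains Lamb1 and Lamb2 did not pass, and Lamb3, the beta chain that pairs with Lama3 in epithelia, fell with fenofibrate against HFD. Lamb3 stood at 2.96, 7.98, 4.41 and 4.60 CPM in Control libraries 1 to 4. It stood at 7.36, 5.24, 5.77 and 9.61 in HFD and at 3.95, 3.78, 3.70 and 3.25 with fenofibrate. Control overlapped both other groups, and every fenofibrate library lay below every HFD library. The log2 fold change was -0.93 ± 0.25 (edgeR adjusted p = 0.0279), against 0.49 ± 0.25 with the diet (adjusted p = 0.228). The call was lost without HFD library 1 (0.0672) or 4 (0.0975), fenofibrate library 1 (0.0553), 3 (0.0743) or 4 (0.0642), and without libraries 1 and 3 together (-0.99, adjusted p = 0.191). Without Control library 2, at 7.98 CPM, Lamb3 passed with the diet (0.81, adjusted p = 0.031).

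The annotated span of Lamb3 (chromosome 1, 193207699 to 193343878, plus strand) holds 2 abundant genes on the minus strand: Hsd11b1, with 167389 counts, and G0s2, a lipase inhibitor of lipid droplets with 49941 counts, which lies 121 bases from the nearest Lamb3 exon. G0s2 itself fell with fenofibrate against HFD (-2.40 ± 0.44, edgeR adjusted p = 0.00483, and -2.03 with adjusted p = 0.121 without fenofibrate libraries 1 and 3). Control libraries 1 to 4 held 151, 485, 182 and 174 CPM of G0s2. HFD libraries held 685, 249.7, 268 and 561, and fenofibrate libraries 60.3, 164, 60.0 and 51.2. The libraries highest in G0s2 within Control and HFD (Control 2, HFD 1 and HFD 4) were also the highest in Lamb3, while in the fenofibrate group library 2 had 164 CPM of G0s2 against 51.2 to 60.3 and its Lamb3 level lay inside the range of the other 3. Lamb3 had 1053 counts and shares no exon base with either gene, and whether the counting used strand is unknown here, so the part of neighbouring reads in the Lamb3 value was not tested.

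Lamb2, the chain of vascular and neuromuscular laminins, gave 0.61 ± 0.21 with fenofibrate against HFD (95% interval 0.17 to 1.06, adjusted p = 0.0628). It passed with DESeq2 (0.61, adjusted p = 0.0418), with unscaled totals (0.78, adjusted p = 0.035), without HFD library 2 (0.82, adjusted p = 0.0297) and without fenofibrate library 2 (0.72, adjusted p = 0.0306). With the diet it gave -0.53 ± 0.21 (adjusted p = 0.117), and passed without HFD library 2 (-0.74, adjusted p = 0.041), whose 7.89 CPM was the highest of the HFD group.

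Among the laminin gamma chains 1 fell with the diet and 1 rose with fenofibrate against HFD. Lamc1, the common chain, which binds nidogen, stood at 13.4 ± 2.64 CPM for Control, 11.2 ± 0.710 for HFD and 14.2 ± 2.85 for fenofibrate and did not pass (diet -0.27 ± 0.16, fenofibrate against HFD 0.35 ± 0.16). Lamc3, a chain of restricted distribution, fell with the diet. Levels of Lamc3 in libraries 1 to 4 were 3.80, 4.47, 4.97 and 3.73 CPM in Control. They were 2.16, 1.65, 1.47 and 1.98 in HFD and 2.37, 4.44, 2.34 and 3.20 with fenofibrate. HFD libraries lay below all others. The diet gave -1.22 ± 0.23 (edgeR adjusted p = 0.00273), kept in all 20 alternative fits at 0.05. Fenofibrate gave 0.76 ± 0.23 against HFD (edgeR adjusted p = 0.0426), a call near the threshold that was lost without any 1 of 8 single libraries (Control 4, HFD 1, 2, 3 or 4, fenofibrate 2, 3 or 4, with adjusted p between 0.0516 and 0.095) and without fenofibrate libraries 1 and 3 (1.07, adjusted p = 0.0567). Against Control it gave -0.47 ± 0.22 (adjusted p = 0.195), and passed without fenofibrate library 2, at 4.44 CPM the highest of its group (-0.68, adjusted p = 0.0451).

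Bile duct markers were looked at beside these laminins, since ducts carry an epithelial basement membrane. The sum of the 12 cholangiocyte markers was 70.4 to 101 CPM for Control, 52.9 to 92.8 for HFD and 61.9 to 75.8 for fenofibrate. Spp1, which other cells share, gave 20.7 to 66.1 CPM of it, so the overlap of these sums says little of the other markers. The median log2 fold change of the 10 tested was -0.60 with the diet, with 2 positive. For fenofibrate against HFD it was 0.35, with 7 positive. Over all genes the medians were -0.02 and 0.01. Of 10 tested, 2 fell with the diet, among them the transcription factor gene Sox9 (-0.94 ± 0.24, edgeR adjusted p = 0.0166). With fenofibrate against HFD 2 rose, among them the keratin gene Krt23, from 1.93 ± 0.360 to 5.35 ± 4.14 CPM (1.48 ± 0.42, adjusted p = 0.0323). As CPM of unscaled totals, Krt23 was 6.31 and 12.9 in fenofibrate libraries 1 and 3, 2.37 and 2.48 in the other 2 and 1.38 to 2.34 for HFD, and without libraries 1 and 3 it gave 0.28 (adjusted p = 0.673). The duct keratin gene Krt19 stood at 0.443 to 2.68 CPM of unscaled totals over the 12 libraries and passed in neither. Sox9, Krt23 and Krt19 were named after their values were seen, and the part of bile duct cells in the Lama5 and Lamc3 values was not tested.

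The authors' deposited table, which holds their own test of the first 2 comparisons, gave adjusted p-values of 1.13e-06 for Col5a3, 4.09e-04 for Lama5, 3.39e-05 for Lamc3 and 0.00139 for Col15a1 with the diet. For fenofibrate against HFD the authors' deposited table gave 3.54e-10 for Col5a3, 7.16e-06 for Col27a1, 5.15e-04 for Lamb3, 0.00506 for Lama5 and 0.00618 for Lama1. At an adjusted p of 0.05, its values for Col14a1 (0.0384) and Lamc3 (0.0534) in that comparison lie on the other side from the test used here. The significance column of the authors' deposited table marks fewer genes than that threshold gives: Col20a1, Lama5 and Lamc3 with the diet, and Col5a3 and Col27a1 with fenofibrate. The authors' log2 fold changes of the marked genes ran from -1.02 to -1.52. Unmarked genes under that threshold were all smaller in size, the largest being Lamb3 with fenofibrate (-0.936).

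Beyond the chains themselves, of 21 tested genes that process and crosslink collagen 1 rose and 3 fell with the diet (median -0.15, against -0.02 over all genes). Loxl4, a lysyl oxidase that crosslinks collagen, fell from 3.80 ± 0.713 to 1.36 ± 0.568 CPM (-1.49 ± 0.28, edgeR adjusted p = 0.00244), and was also lower in the fenofibrate group than in Control (-1.65 ± 0.28, adjusted p = 0.00174). Tgm2, a transglutaminase, rose (0.54 ± 0.11, adjusted p = 0.00491), while P3h1, a prolyl hydroxylase (-0.46 ± 0.11), and Colgalt1, which adds galactose to collagen (-0.31 ± 0.09), fell. P3h1 missed the threshold without Control library 1 (adjusted p = 0.051) and with unscaled totals (-0.41, 0.0577). Colgalt1 missed it without Control library 1 (0.0956), any 1 HFD library (0.0586 to 0.0744) or fenofibrate library 1 (0.0539), with unscaled totals (-0.27, 0.167) and with only the 8 libraries compared (0.0504). With fenofibrate against HFD 2 of 21 rose, Colgalt1 (0.50 ± 0.09, edgeR adjusted p = 0.00342) and Bmp1, the C-propeptidase of fibrillar collagens (0.38 ± 0.09, adjusted p = 0.0171), and 0 fell (median -0.11). The Bmp1 call was lost without fenofibrate library 3 (0.0572).

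Of 13 matrix proteases and inhibitors, 2 rose and 2 fell with the diet (median -0.29) and 3 rose and 0 fell with fenofibrate against HFD (median 0.23). With the diet the membrane protease gene Mmp15 was among those that rose (0.57 ± 0.12, adjusted p = 0.00741). Timp2, a metalloproteinase inhibitor (-0.62 ± 0.13, adjusted p = 0.00745), and Reck, a membrane inhibitor (-0.76 ± 0.22, adjusted p = 0.0329), fell. With fenofibrate Timp2 (0.59 ± 0.13), Mmp14 (0.57 ± 0.13) and Mmp11 (0.83 ± 0.26) rose, at edgeR adjusted p of 0.0122, 0.0128 and 0.0436. The diet call of Reck was lost without Control library 1 or 4 or HFD library 1 or 4, with adjusted p of 0.0661 or more, and with unscaled totals (-0.71, adjusted p = 0.0763). That of Mmp11 was lost without Control 4 or any HFD or fenofibrate library except HFD 4 (up to 0.106), and that of Mmp14 without fenofibrate 3 (0.05).

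Receptors of collagen and laminin gave 0 risen and 1 fallen of 17 with the diet, the syndecan gene Sdc1, from 358 ± 47.3 to 209.8 ± 25.5 CPM (-0.77 ± 0.11, edgeR adjusted p = 5.06e-04). With fenofibrate against HFD the laminin receptor subunit gene Itga7 rose (0.77 ± 0.17, adjusted p = 0.0103) and Itgb1, the integrin beta subunit that collagen and laminin receptors share, fell (-0.45 ± 0.12, adjusted p = 0.0264). The Itgb1 call was lost without HFD library 1 (0.0801), 2 (0.0541) or 4 (0.0579), without fenofibrate library 1 (0.0601) or 3 (0.0887), and with unscaled totals (0.0505). Other basement membrane genes had 0 calls of 10 with the diet, where the most abundant, Smoc1 and Agrn (agrin), gave 0.19 ± 0.11 and 0.07 ± 0.13, and 2 rose with fenofibrate against HFD. These were Npnt, the nephronectin of epithelial basement membranes, from 0.499 ± 0.264 to 2.70 ± 1.47 CPM (2.42 ± 0.48, adjusted p = 0.00466), and Smoc1, a calcium-binding matrix protein, from 101 ± 9.58 to 143 ± 14.7 CPM (0.51 ± 0.11, adjusted p = 0.00782). Both were also higher than in Control (Npnt 2.07 ± 0.45, Smoc1 0.70 ± 0.11).

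Of 24 other matrix proteins none passed with the diet, including the most abundant, Vtn (-0.10 ± 0.10) and Fn1 (0.09 ± 0.14), the plasma proteins vitronectin and fibronectin that hepatocytes secrete. With fenofibrate against HFD the small proteoglycan gene Fmod (1.80 ± 0.43) and Fbln1 (1.63 ± 0.52) rose, and Spon2 (-1.56 ± 0.34) and Efemp1 (-0.55 ± 0.17) fell. Fmod was 6.82 CPM in fenofibrate library 1 and 1.53 to 3.26 in the other 3, and Fbln1 5.04 and 1.48 to 2.24. Without libraries 1 and 3 Fmod gave 0.80 and Fbln1 0.91 (adjusted p = 0.265 and 0.442). The Fbln1 call was also lost without any 1 HFD library or fenofibrate library 1 or 3 (0.0703 to 0.167), and the Efemp1 call without Control 2 or 4, any 1 HFD library or fenofibrate 1, 3 or 4 (0.0503 to 0.133) and with unscaled totals (-0.39, 0.129). TGF-beta is the main inducer of collagen in stellate cells, and platelet-derived growth factor (PDGF) drives their division. Of 26 tested genes of a list that joins TGF-beta signalling with PDGF ligands and receptors, 0 rose and 2 fell with the diet, the TGF-beta receptor gene Tgfbr2 (35.8 ± 7.31 to 18.9 ± 1.87 CPM, -0.92 ± 0.15, edgeR adjusted p = 0.00114) and the PDGF receptor gene Pdgfra (-0.52 ± 0.12, adjusted p = 0.011). Only Ltbp2, a binding protein of latent TGF-beta, rose with fenofibrate against HFD in that list (1.11 ± 0.33, adjusted p = 0.0353), and it was lost without HFD library 1, 2 or 3 or fenofibrate library 1 or 3 (0.0658 to 0.11). Of the genes named from these lists for fenofibrate against HFD, only Smoc1 passed without fenofibrate libraries 1 and 3 (0.60, adjusted p = 0.0486). The others kept their direction there. Colgalt1 gave 0.43, Bmp1 0.42, Timp2 and Mmp14 0.41 each, Mmp11 0.81, Itga7 0.73 and Itgb1 -0.35. Npnt gave 1.78, Spon2 -1.39, Efemp1 -0.62 and Ltbp2 1.01. Adjusted p for these 11 ran from 0.0903 for Colgalt1 to 0.269 for Itgb1.

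Against Control, the fenofibrate group had 0 risen and 1 fallen of 21 processing genes (Loxl4), 2 risen of 13 proteases and inhibitors (among them Mmp15, 0.59 ± 0.12), 2 risen and 1 fallen of 17 receptors (Sdc4 0.79 ± 0.15, Itga7 0.61 ± 0.17, Sdc1 -0.72 ± 0.11), 2 risen of 10 basement membrane genes, and 0 risen and 2 fallen of the 26 TGF-beta and PDGF genes (Bambi -0.78 ± 0.18, Tgfbr2 -0.51 ± 0.15). None of 24 other matrix proteins passed, with -0.16 ± 0.10 for Vtn and 0.38 ± 0.14 for Fn1. In this comparison Loxl4, Sdc4, Sdc1 and Smoc1 also passed without fenofibrate libraries 1 and 3, and the others named did not. The calls of Itga7 (Control 2, 3 or 4, fenofibrate 1, 3 or 4, adjusted p up to 0.104) and Tgfbr2 (Control 1, 3 or 4, HFD 2, 3 or 4, fenofibrate 1, 2 or 4, up to 0.134) were also lost without the single libraries given, and that of Tgfbr2 with unscaled totals (-0.30, adjusted p = 0.28) and with only the 8 libraries compared (0.079).

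Stellate cells were followed through 15 markers, of which 14 were tested. Their sum was 317.5 to 339 CPM for Control, 260.1 to 362 for HFD and 275 to 356 for fenofibrate, so the groups overlapped. Ecm1 alone gave 86.7 to 137 CPM of it. Des gave 29.5 and 17.8 CPM in fenofibrate libraries 1 and 3, against 3.31 to 6.10 in the other libraries. The overlap of the sums therefore says little of the other markers. None passed with the diet in either direction. With fenofibrate against HFD, 5 fell and 1 rose (median -0.25, against 0.01 over all genes, of which 6.59% fell and 6.89% rose), and 4 of the 14 values were positive. The 12 Kupffer cell and macrophage markers had a median of -0.23 in the same comparison, with 2 positive and 0 passing. Portal fibroblast and mesothelial markers went the other way, with 8 of 9 tested positive (median 0.38) and 0 passing. With the diet 1 of the 9 was positive (median -0.29), and 0 passed. The sum of that list was 40.8 to 57.2 CPM for Control, 33.5 to 44.2 for HFD and 45.0 to 75.8 for fenofibrate, where libraries 1 and 3 were highest (75.8 and 59.9). TMM scaling (factors 0.966 and 0.990) reverses the order of the nearest libraries, HFD 4 and fenofibrate 2. Gas6 alone gave 20.7 to 29.8 CPM of the HFD sums and 26.8 to 44.7 of the fenofibrate sums. For the stellate markers against Control 3 fell and 1 rose (median -0.25). With only fenofibrate libraries 2 and 4 left, none of the 14 passed in either comparison, while the medians stayed near those values (-0.30 and -0.21). The genes below were singled out after their values were seen.

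Colec11, a collectin, fell from 44.4 ± 6.93 to 26.4 ± 2.88 CPM (-0.75 ± 0.15, edgeR adjusted p = 0.00686), and Tcf21, a mesenchymal transcription factor, from 4.97 ± 0.457 to 2.84 ± 0.384 CPM (-0.81 ± 0.18, adjusted p = 0.0107). Every fenofibrate library lay below every HFD library for both. Lrat, which esterifies retinol for storage (-0.63 ± 0.20, adjusted p = 0.0475), Reln (-0.37 ± 0.10, adjusted p = 0.025) and Rgs5 (-0.51 ± 0.14, adjusted p = 0.024) also fell. The calls of Lrat, Reln and Rgs5 were lost with unscaled totals (adjusted p = 0.105, 0.183 and 0.0903) and without fenofibrate library 3 (0.108, 0.0851 and 0.0822). They were also lost without HFD library 4 (0.128, 0.0768 and 0.054), and Lrat without any 1 of Control 3 or 4, HFD 1 or 2 or fenofibrate 1, 2 or 4 (0.0547 to 0.123), Reln without HFD 2 or 3 or fenofibrate 1 (0.0503 to 0.071) and Rgs5 without HFD 3 or fenofibrate 4 (0.0629 and 0.0671). None of the 5 passed without fenofibrate libraries 1 and 3 together, where their log2 fold changes were -0.32 to -0.71.

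Des, the intermediate filament desmin, rose with fenofibrate against HFD (1.46 ± 0.44, adjusted p = 0.0385), but it stood at 26.3 and 15.3 CPM in fenofibrate libraries 1 and 3 and at 3.84 and 5.57 in 2 and 4. Desmin is also a striated muscle protein, and without libraries 1 and 3 the change was 0.03 (adjusted p = 0.966). Of the 6 tested genes of the myofibroblast list, Tpm2, a muscle tropomyosin, rose with 33.5 and 27.4 CPM in the same 2 libraries (1.65 ± 0.50, adjusted p = 0.0414), and gave -0.03 without them (adjusted p = 0.979). Acta2 gave -0.79 ± 0.76 with the diet (adjusted p = 0.553) and 1.84 ± 0.72 with fenofibrate (adjusted p = 0.0951), the latter with the high value of library 1. Against Control, Colec11 (-0.59, adjusted p = 0.0264) and Tcf21 (-0.62, adjusted p = 0.0422) also fell in the fenofibrate group. Both of these calls were lost without Control library 2 (0.09 and 0.0957), 3 (0.0569 and 0.108) or 4 (0.061 and 0.105) or fenofibrate library 1 (0.0827 and 0.122), 3 (0.0833 and 0.119) or 4 (0.0593 and 0.103), and that of Tcf21 without any 1 HFD library (0.0501 to 0.0591). With unscaled totals neither passed (0.0798 and 0.117), nor did Tcf21 with only the 8 libraries compared (0.0873).

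**Figure D5:**
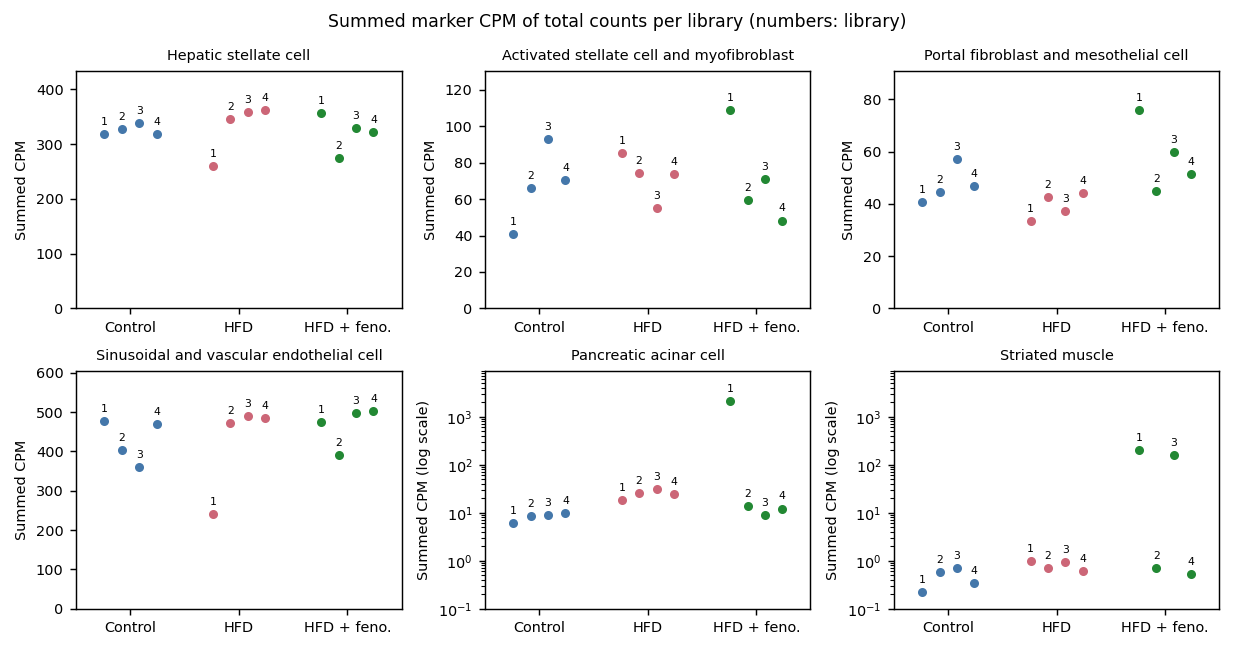
Summed CPM of total counts of the marker genes of 6 cell types in each library (points, numbered by library); the 2 lower right panels have log axes. The stellate sums overlap between groups (260.1 to 362 CPM), HFD library 1 is low in stellate and endothelial markers, and fenofibrate libraries 1 and 3 stand out for muscle and library 1 for pancreas. On these unscaled totals the portal fibroblast and mesothelial sums of fenofibrate libraries (45.0 to 75.8 CPM) lie narrowly above those of HFD (33.5 to 44.2). The gap does not hold after TMM scaling, and 0 of the 9 tested markers passed.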

How the data were processed

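Liver RNA of 12 mouse samples was sequenced in 3 groups of 4. The authors deposited 2 tables of whole-number read counts per gene, 1 for each of the first 2 comparisons, with their own log2 fold changes and adjusted p-values, per the file headers. Per the submitters' processing notes the tools were HISAT2 2.0.5, HTSeq 0.6.0 and StringTie 1.3.2d; the notes name the builds mm8 and mm9, while 23225 of 25113 gene positions equal GENCODE M21 (GRCm38). No source used here gives the strand setting.

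The tables were joined by gene identifier, with a missing gene set to 0; the HFD counts of the 22657 shared genes were identical in both. A gene missing from 1 table (1389 were only in the fenofibrate table and 1118 only in the diet table) therefore has 0 where it was not listed. Tests used edgeR 4.0.16 (filterByExpr, TMM, quasi-likelihood, 1 coefficient per group over 12 libraries) with Benjamini-Hochberg adjustment over 13477 genes and a threshold of 0.05. Standard errors are Wald errors of the coefficients, not the planned ratio to the root of F, which is undefined near 0. Library totals ran from 15797016 to 18514481 counts; precision is given by SD, SE and 95% intervals, and depth limits genes below about 1 CPM. No 2 libraries of a group agreed within sampling noise (chi-square per gene 14.7 to 41.2). Code was tested on simulated data. Named genes are every member that passed, the 10 highest members per kilobase, untested members with their totals, and from each pathway list up to 4 genes that passed by size of change (the 2 most abundant where none did); other names were chosen after their values were seen. Alternatives were DESeq2 1.42.0, other scalings and filters, the 8 libraries compared, a replicate block, a threshold of 0.01 and leaving out libraries singly or fenofibrate 1 and 3 together. Members, lists and that pair of libraries were chosen with earlier results of these data known. Some genes of the lists are not reported here.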

Additional observations from a re-analysis of the deposited data

Results flagged for a closer look

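Of 84 sets of 4 values examined, 3 held 1 library far from the other 3; by chance about 1 set in 20 would. In HFD library 1 the sum of hepatic stellate cell markers was 260 CPM of total counts, against 346 to 362 in the other HFD libraries, and the sum of endothelial markers was 242 CPM, against 472 to 490. In fenofibrate library 1 the sum of pancreatic acinar markers was 2150 CPM, against 9.02 to 13.9 in the other fenofibrate libraries.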

How the results depend on the processing

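At a threshold of 0.01, 1 of the 35 genes rose and 2 fell with the diet, 0 rose and 2 fell with fenofibrate against HFD, and 1 rose and 1 fell in the fenofibrate group against Control. Of all genes tested, 2.55% rose and 2.67% fell at 0.01 with the diet, 1.48% and 1.94% against HFD, and 1.74% and 1.62% against Control. With no low-count filter, with only the 8 libraries compared and with the replicate block, 1 rose in each of the latter 2 comparisons, and with a mean of at least 1 CPM 1 rose against Control. Without fenofibrate libraries 1 and 3, counts were 0 risen and 2 fallen against HFD and 0 and 0 against Control. Leaving out 1 library at a time gave 2 to 5 risen and 2 to 4 fallen with the diet, 0 to 2 and 2 to 4 against HFD, and 1 to 2 and 1 to 2 against Control. Over all genes the same fits gave 550 to 832 risen and 554 to 930 fallen with the diet, 282 to 1210 and 328 to 1206 against HFD, and 383 to 858 and 310 to 852 against Control. The same pair of libraries turned Tpm2 from 1.65 to -0.0256 (log2) with fenofibrate against HFD.

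Of the named genes' calls under these alternatives, 1059 stayed on their side of the threshold, 258 fell short of it and 1 changed direction; of the values not called, 129 stayed so and 11 passed. The replicate numbers pair nothing in the labels, and same-numbered libraries did not deviate together (correlations from -0.175 to 0.139, with 0 libraries closest to their own number); with the block 5 of the 35 genes fell with fenofibrate against HFD, Col14a1 being added, and the diet counts were 3 and 4. Col20a1 (296 counts) and Col6a6 (128 counts) are limited by depth.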

Other observations

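Among the 16 genes with too few counts to test, 3 had most of their counts or their highest value in fenofibrate library 1. Col22a1 had 6 of its 7 counts there, Col4a6 had 18 counts there and 1 to 6 in the other libraries, and Col8a2 had 13 there and 0 to 5 in the others. That library also held the highest Acta2 level (23.9 CPM of total counts).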
